A study of Camellia sinensis with 6 samples.

Results

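The auxin genes described here are the gene models of the tea plant (Camellia sinensis) that belong to auxin response, auxin transport and the first genes that auxin switches on. Of 40118 gene models in the deposited count table, 175 were members. The rule reads the annotation and no measured value, though the gene set was picked with earlier results of these data known. It takes models placed in the Auxin_resp family or named auxin response factor (ARF, 45 models), models with the AUX/IAA domain that are no ARF (26), the SAUR domain (51), the GH3 domain (22) or the PIN-type carrier domain (20), and models named auxin transporter (AUX/LAX, 11). Of the 175, 6 carry the name of another protein, such as a mitochondrial fission protein or a helicase, 10 have no protein name and 8 lie at loci outside the authors' gene models. No member named as another protein was called in either direction.

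RNA was sequenced from young shoots of the cultivar 'Zhonghuang 2', genotype zhonghuang 2, which etiolates at low temperature. All plants were first grown for 1 month at 22 °C under 200 μmol m-2 s-1 of light with 12 h light and 12 h dark, and were then held in 1 of 2 climate chambers until the leaves in the cold had yellowed. The control group, high temperature, had 26 °C in the light and 22 °C in the dark and gave green shoots (3 libraries). The low-temperature group had 18 °C in the light and 14 °C in the dark and gave yellowed shoots (3 libraries). Each temperature had its own chamber, so chamber and temperature cannot be told apart. Separate plants are not stated for the 3 libraries of a group. The p-values therefore rest on the spread among these libraries, and that spread may be technical.

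Libraries held between 15202546 and 15642015 counts. High-temperature replicate 2 stood apart from the other libraries of its group, since its counts differed from theirs by a chi-square averaging 26.5 and 23.0 a gene, and theirs from each other by 5.41. Low-temperature replicate 1 also stood apart from the others of its group, by 11.7 and 10.4 against 5.76 between them. It held the lowest cold value in 21 of the 24 members called higher (87.5%) and in 54.8% of all models called higher. Leaf mesophyll markers were abundant: the 25 models of that list summed to between 30213 and 49251 CPM (counts scaled to library size, with TMM factors) in every library, and none was at 0. The test covered 26767 gene models with edgeR, and a call means a Benjamini-Hochberg adjusted p under 0.05 over all of them. At low temperature 2480 models (9.27%) were called higher and 2582 (9.65%) lower, 18.9% in all.

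Auxin moves directionally from cell to cell, carried inward by AUX/LAX proteins and outward by PIN proteins. Inside the nucleus it binds the TIR1 and AFB F-box receptors, which then mark Aux/IAA repressors for destruction. This frees the ARF transcription factors to act on auxin target genes, among them the Aux/IAA genes themselves, the GH3 genes, whose enzymes tie auxin to amino acids, and the small SAUR genes. In Arabidopsis shoots SAUR proteins promote cell expansion by keeping plasma membrane proton pumps active, and warmth is known to raise auxin synthesis and SAUR expression in seedlings.

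At low temperature 14 of 37 tested ARF models and 4 of 10 AUX/LAX importers rose, and 10 of 35 SAUR models fell. Of 23 tested Aux/IAA models 2 rose (8.7%, near the 9.27% of all models) and 4 fell (17.4%, against 9.65%). Of the 175 members 137 passed the filter on low counts and 38 did not, 12 of which had no count in any library. Of the 137, 24 (17.5%) were called higher, against 9.27% of all models tested, and 17 (12.4%) lower, against 9.65%. Only 3 tested members had reached the filter's level in all libraries of 1 group and in none of the other, and none of these was called. The median log2 change was 0.10 over the 137 and -0.01 over all models tested. Changes were modest: 3 members were called at least 2-fold higher, where 1.76% of all models were, and 6 at least 2-fold lower, where 3.03% were. Low-temperature libraries lay wholly above the high-temperature ones in 35 tested members, against 18.1% of all models, and wholly below in 27, against 18.4%. Of the 41 calls, 15 held whichever single library was left out. The share of all models' calls that held in this way was not computed, so this count has no background. In bulk shoots, fewer cells of a type and less RNA per cell cannot be told apart.

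**Figure D1:**
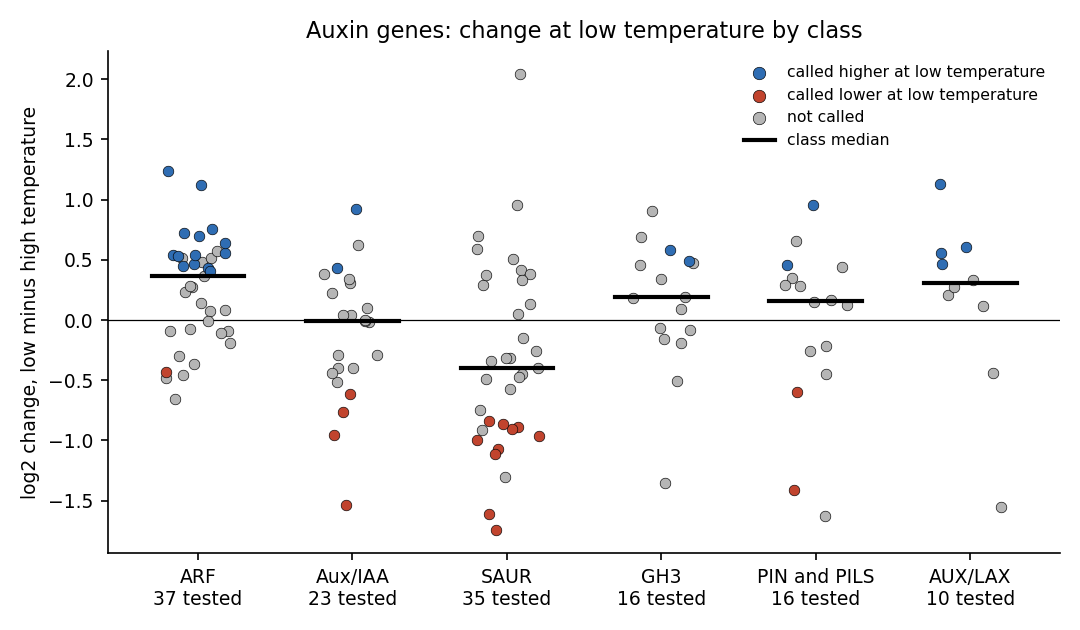
The vertical axis is the log2 change from high to low temperature, and each point is 1 tested member, grouped by class and coloured by its call at an adjusted p under 0.05. Black bars are class medians, 0.37 for ARF and -0.40 for SAUR, and no SAUR model is called higher.

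ARF transcription factors bind auxin response elements through a B3 domain, and most either activate or repress their targets. Of 45 ARF models 37 were tested, and 14 were called higher, 37.8% against the background of 9.27%. A single one was called lower, and 22 did not pass. Their median log2 change was 0.37, and 25 of the 37 lay above 0. The summed level of the class was 1547, 1573 and 1463 CPM in high-temperature replicates 1, 2 and 3, and 1732, 1972 and 1965 CPM in low-temperature replicates 1, 2 and 3. All low-temperature sums were above all high-temperature sums, and low-temperature replicate 1 lay nearest to the other group. Of the 14 ARF models called higher, 13 had their lowest low-temperature value in that replicate, where 54.8% of all models called higher did. Leaving out 1 library moved the count of ARF models called higher. It was 9 without high-temperature replicate 1 (8.1% of all models) and 8 without replicate 3 (6.43%). It was 6 without low-temperature replicate 2 (4.59%) and 5 without replicate 3 (4.86%). It was 15 without high-temperature replicate 2 (10.6%) and 14 without low-temperature replicate 1 (7.61%). The class median stayed between 0.31 and 0.49 over these 6 fits, and 4 ARF models kept their call in all of them: ARF6, ARF15 and the neighbouring pair of ARF1 models described below. For all called models the share that kept their call was not computed.

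The ARF model with the smallest p was an auxin response factor 6 (Cha07g008810, sequence 7, 77402718 to 77417741, minus strand, coding length 3066 bases). In Arabidopsis ARF6 is an activator that promotes elongation and flower maturation. It measured 71.8, 78.8 and 70.8 CPM at high temperature and 140.2, 178.7 and 163.9 CPM at low temperature. Each cold library was above the highest warm one. The change was 2.18-fold, 1.12 ± 0.14 (SE) on the log2 scale, with an adjusted p of 2.98e-05 (edgeR). Its name is shared by 4 models. The longest of the others (Cha07g002840) had groups that did not overlap, a log2 change of 0.28 and an adjusted p of 0.155. A short model of 474 coding bases (ChaUn9047.9) rose from 0.952, 2.28 and 2.10 CPM to 3.67, 4.03 and 4.99 CPM (2.36-fold, adjusted p = 0.0236), a call that was lost without high-temperature replicate 1 and without low-temperature replicate 2 or 3. Models named auxin response factor 8, the closest relative of ARF6 in Arabidopsis, were not called: 3 were tested, and the one with the smallest p (Cha01g015680) had a log2 change of 0.37 and an adjusted p of 0.0532.

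The single model named auxin response factor 5 (Cha04g001260), in Arabidopsis the factor called MONOPTEROS that sets up organ initiation and veins, measured 47.9, 35.5 and 41.5 CPM at high and 61.1, 58.9 and 60.5 CPM at low temperature. Its groups did not overlap, and the log2 change was 0.53 ± 0.14 (adjusted p = 0.0118), a call lost without low-temperature replicate 3. One of 2 models named auxin response factor 19 (Cha14g012270), which in Arabidopsis acts with ARF7 in root and shoot growth, rose 1.33-fold (adjusted p = 0.0454), but was called only with high-temperature replicates 1 and 3 and low-temperature replicates 2 and 3 all present. The other model of that name (Cha03g000300) had a log2 change of -0.10 and an adjusted p of 0.655.

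Of 3 tested models named auxin response factor 1, a repressor, all 3 were called higher. The largest change among them was in Cha06g003310 (sequence 6, 27028387 to 27033163, plus strand), which measured 25.4, 27.2 and 26.9 CPM at high and 35.0, 50.9 and 45.0 CPM at low temperature (1.65-fold, adjusted p = 0.00335). The next model (Cha06g003300) lies 73 bases beyond it on the same strand, has the same name and rose 1.62-fold. They may be parts of a single gene, which was not tested. The third model of the name (Cha02g011940) rose 1.47-fold (adjusted p = 0.00915, edgeR). Its call was lost without high-temperature replicate 3 and without low-temperature replicate 2. The 2 full-length models named auxin response factor 2, which in Arabidopsis limits cell division and organ size, were among the most abundant ARFs, at 66.1 and 57.4 FPKM averaged over all libraries. They rose 1.38-fold (Cha15g006640, adjusted p = 0.0247) and 1.36-fold (Cha03g008140, adjusted p = 0.0369). Both calls were lost without high-temperature replicate 3 and without low-temperature replicate 2 or 3, and that of Cha03g008140 also without high-temperature replicate 1.

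ARF3 and ARF4 specify the lower face of the leaf in Arabidopsis. The single auxin response factor 3 model (Cha07g010980) measured 13.1, 13.7 and 14.7 CPM at high and 19.9, 21.8 and 22.9 CPM at low temperature, without overlap (1.56-fold, adjusted p = 0.00931, lost without low-temperature replicate 3). Of 4 tested models named auxin response factor 4, 2 rose, Cha13g004730 by 1.45-fold (adjusted p = 0.0109) and Cha11g005050 by 1.35-fold (adjusted p = 0.0296). Both calls were lost without high-temperature replicate 3 and without low-temperature replicate 2 or 3, and that of Cha11g005050 also without high-temperature replicate 1. The other 2 are short or lie outside the gene models and were not called. A model named auxin response factor 15 (Cha07g004750, sequence 7, 34255404 to 34362022, plus strand) rose from 17.3, 19.3 and 16.5 CPM to 26.9, 33.4 and 29.6 CPM (1.69-fold, adjusted p = 0.00231). One of 2 models named auxin response factor 22 (Cha11g004840) rose 1.46-fold (adjusted p = 0.0296, lost without high-temperature replicate 1 and without low-temperature replicate 2 or 3). The other (Cha04g019260) had a log2 change of -0.48 that did not pass (adjusted p = 0.0904).

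The ARF with the highest level per length went the other way. An auxin response factor 9 model (Cha06g008860, sequence 6, 96980887 to 96985221, plus strand), at 79.3 FPKM, measured 196, 205 and 178 CPM at high and 142, 144 and 143 CPM at low temperature. The fall was 1.35-fold (log2 change -0.43 ± 0.13, adjusted p = 0.0262), and only high-temperature replicate 2 could be left out with the call intact. Its namesake Cha14g009270, at 75.9 FPKM, had a log2 change of 0.07 and an adjusted p of 0.754. None of the tested models named auxin response factor 17, 18, 23 or 25 was called by edgeR, and their levels reached at most 6.50 FPKM.

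ARF models with and without the C-terminal domain through which ARFs pair with Aux/IAA repressors both included models that rose. Of 11 tested ARF models with the AUX/IAA domain annotated 6 were called higher and 1 lower, with a median of 0.41. Of 26 without it 8 were called higher and 0 lower, with a median of 0.32. A difference between them was not tested, and a missing domain can also come from a short gene model, since coding lengths of the class ran from 214 to 3348 bases.

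**Figure D2:**
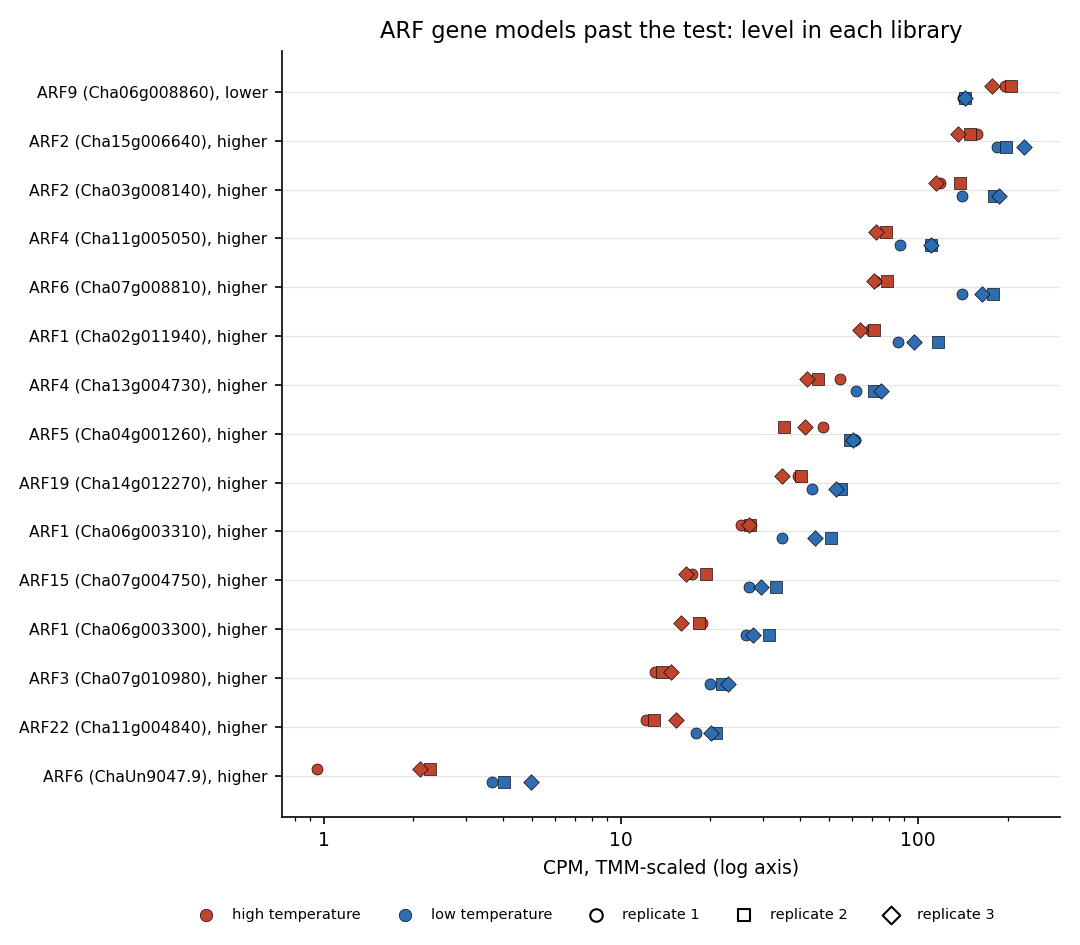
The horizontal axis is the level in CPM on a log scale, and each row is 1 of the 15 ARF models past the test, ordered by the high-temperature mean, with 1 symbol per library. In all 15 the groups are apart, with the cold libraries to the right except for auxin response factor 9, and the circle of low-temperature replicate 1 is usually the cold symbol nearest to the warm ones.

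Receptors were not members but were counted as the step before the ARFs. Of 11 models named TIR1, TIR1-like or AFB2, 9 were tested, 4 were called higher, against 9.27% of all models, and 0 lower (by DESeq2 also 4 and 0, and at an unadjusted p under 0.05 6 and 0), and all 9 had a positive change with a median of 0.44. A TIR1 model (Cha11g012340) measured 83.2, 54.7 and 69.0 CPM at high and 98.9, 120.7 and 133.5 CPM at low temperature. The groups did not overlap, and the change was 1.71-fold (adjusted p = 0.00273). This was the sole receptor still called without low-temperature replicate 2 or without replicate 3. Of 10 tested TOPLESS-type co-repressors, which Aux/IAA proteins recruit to silence ARF targets, none fell by edgeR or DESeq2 (1 at an unadjusted p under 0.05). By both tools 1 of the 10 rose (10%, near the 9.27% of all models by edgeR). It was Topless-related protein 4 (Cha03g007040), with 47.4, 53.0 and 48.4 CPM at high and 61.1, 72.5 and 74.5 CPM at low temperature (1.40-fold, adjusted p = 0.0153). Its call was lost without high-temperature replicate 1 or 3 and without low-temperature replicate 2 or 3.

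Aux/IAA proteins are the repressors that auxin removes, and many of their genes are themselves switched on by auxin. Of 26 models 23 were tested, and the median was 0.00. Of the 23, 2 rose (8.7%, near the 9.27% of all models) and 4 fell (17.4%, against 9.65%). The class held the most abundant members: it made up 47.2% of the FPKM summed over all members, led by an IAA14 model (Cha09g014630) at 378 FPKM. That model measured 303, 228 and 314 CPM at high and 236.5, 313.4 and 291.7 CPM at low temperature. Its groups overlapped fully, with an adjusted p of 0.989. Of the 2 IAA9 models, next in level at 251 and 235 FPKM, neither passed. Cha01g018020 had an adjusted p of 0.869, and ChaUn5380.1, with a log2 change of -0.40 and groups that did not overlap, an adjusted p of 0.0532.

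Of 4 models that fell, 2 are named auxin-induced protein 22D and 22B. Each name has another tested member that overlapped between groups and was not called by edgeR. These were 22D Cha11g010960 (log2 change -0.51, adjusted p = 0.224) and 22B Cha05g003150 (log2 change -0.40, adjusted p = 0.430). Auxin-induced protein 22D (ChaUn12188.1), named after a mung bean gene that auxin raises quickly, measured 78.2, 80.4 and 76.5 CPM at high and 56.4, 30.7 and 34.3 CPM at low temperature. The groups did not overlap, and the level fell 1.94-fold (log2 change -0.95 ± 0.18, adjusted p = 0.00228). Auxin-induced protein 22B (Cha09g014620, sequence 9, 134874370 to 134875267, plus strand) fell from 48.2, 55.6 and 44.2 CPM to 31.6, 27.9 and 27.5 CPM (1.70-fold, adjusted p = 0.00115). It is the neighbour of the abundant IAA14 model, which overlapped between the groups. A weak IAA14 model (Cha03g006520) fell from 4.83, 2.88 and 3.48 CPM to 1.47, 1.34 and 1.04 CPM (2.89-fold, adjusted p = 0.00822). The IAA16 model Cha13g007560 fell 1.53-fold (adjusted p = 0.0128), a call lost without low-temperature replicate 3.

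Both risers of the class were models named IAA26. Cha15g009920 (sequence 15, 100620953 to 100626405, plus strand) measured 27.8, 29.2 and 32.02 CPM at high and 54.9, 59.7 and 53.5 CPM at low temperature. This was the smallest p of the class, with a 1.89-fold rise (log2 change 0.92 ± 0.13, adjusted p = 0.000163). Cha14g000480 rose 1.35-fold (adjusted p = 0.0463), a call lost on leaving out any single library but high-temperature replicate 2. The third model of the name (Cha03g005800) had a log2 change of 0.05 and an adjusted p of 0.882.

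SAUR genes are small auxin-upregulated genes that often stand in tandem. Of 51 SAUR models 35 were tested, 10 (28.6%) were called lower, against a background of 9.65%, and 25 did not pass. None was called higher by edgeR or DESeq2, although 1 was by limma on FPKM and 3 had an unadjusted p under 0.05. The median log2 change was -0.40. The summed level of the class was 207, 205 and 194 CPM at high and 155, 132 and 156 CPM at low temperature, with all cold libraries below all warm ones.

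Of the 10 falling SAUR models, 8 lay in a single run on sequence 6. Members less than 100 kb from the next member were joined into runs, a distance chosen after the values were seen. The run holds 14 SAUR models over 247.4 kb (8648245 to 8895691), with only 3 other loci among them, a locus outside the gene models, a pentatricopeptide repeat protein and a TFIID subunit, none of which was called. Of the 14 SAUR models 12 were tested, 8 fell, and all 12 had a negative change, with a median of -0.91 and a range from -1.75 to -0.34. With 1 library left out 5 to 8 of them were called lower, fewest without low-temperature replicate 2 (4.85% of all models lower). Summed over the run the level was 117, 134 and 112 CPM at high and 64.2, 54.1 and 76.0 CPM at low temperature. In the 37 SAUR models outside the run it was 89.2, 71.1 and 82.1 CPM against 90.5, 78.1 and 79.9 CPM, and these groups overlapped. Of the 23 tested outside the run 2 fell and none rose by edgeR or DESeq2 (1 rose by limma, 3 at an unadjusted p under 0.05), with a median of 0.05. Whether the run differed from other SAUR models was not tested, since it was seen in these values.

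Tandem copies can share reads. In the run, 6 of the 14 models carry the name auxin-induced protein X10A, which 7 models in the table have. The labels do not say how reads matching several copies were counted, and the 8 falls may not be 8 independent observations.

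The run's 2 most abundant models belong by name to the SAUR19 subfamily, which in Arabidopsis drives hypocotyl and leaf growth by cell expansion. SAUR23 (Cha06g001380), at 51.2 FPKM the highest SAUR of the table, measured 19.2, 29.9 and 20.5 CPM at high and 14.1, 9.40 and 13.8 CPM at low temperature. SAUR20 (Cha06g001290) measured 22.2, 19.2 and 24.0 CPM at high and 13.9, 9.78 and 11.7 CPM at low temperature. Neither overlapped between groups, and they fell 1.87-fold (adjusted p = 0.00485) and 1.85-fold (adjusted p = 0.0022). The 2 tested SAUR24 models of the run, of the same subfamily, had log2 changes of -0.45 and -0.57 that did not pass.

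Models named after X10A, a soybean SAUR, made up 5 of the 8 falls. The smallest p was in Cha06g001340 (8741401 to 8744500, minus strand), which measured 16.0, 22.1 and 18.1 CPM at high and 7.80, 7.86 and 11.1 CPM at low temperature (2.10-fold, log2 change -1.07 ± 0.20, adjusted p = 0.0012). The steepest fall was in Cha06g001320, with 55, 62 and 57 counts at high and 17, 17 and 17 at low temperature (3.36-fold, adjusted p = 0.00275). Cha06g001280, at 33, 75 and 46 against 15, 6 and 28 counts, fell 3.05-fold (adjusted p = 0.0262), but lost its call without high-temperature replicate 2 and without low-temperature replicate 1 or 2. The other 2, Cha06g001350 and Cha06g001390, fell from 206, 248 and 154 to 96, 101 and 132 counts and from 73, 117 and 83 to 43, 48 and 43 counts. Both calls were lost without low-temperature replicate 2, and that of Cha06g001390 also without high-temperature replicate 2 or low-temperature replicate 3. ARG7 (Cha06g001360), named after a mung bean auxin-induced protein, fell from 10.6, 10.6 and 6.77 CPM to 3.94, 3.39 and 5.57 CPM (2.16-fold, adjusted p = 0.0062). Models from both strands were among the fallers.

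Beyond the run, and outside its 100 kb joining distance, lie 3 further SAUR models of sequence 6 (Cha06g001250, Cha06g001260 and Cha06g001430). They had log2 changes of -0.48, -0.15 and -0.49 and did not pass. Counted with them, 17 SAUR models were in this stretch, 15 were tested and all 15 had a negative change. The wider stretch was set after the values were seen, and the 15 may not be independent observations. The 2 fallers elsewhere were a SAUR50 model on sequence 1 (Cha01g016780), from 5.34 ± 0.975 to 2.74 ± 0.385 CPM (SD, n = 3), and a model with no protein name (ChaUn8268.6), from 8.76 ± 3.20 to 4.88 ± 0.417 CPM. Neither was called without high-temperature replicate 1 or low-temperature replicate 2 or 3. The first was also lost without high-temperature replicate 2, and the second without high-temperature replicate 3 or low-temperature replicate 1. The largest positive change, in a SAUR36 model (Cha14g006910) with 8, 3 and 2 counts at high and 12, 29 and 14 at low temperature, missed the threshold (adjusted p = 0.0502).

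**Figure D3:**
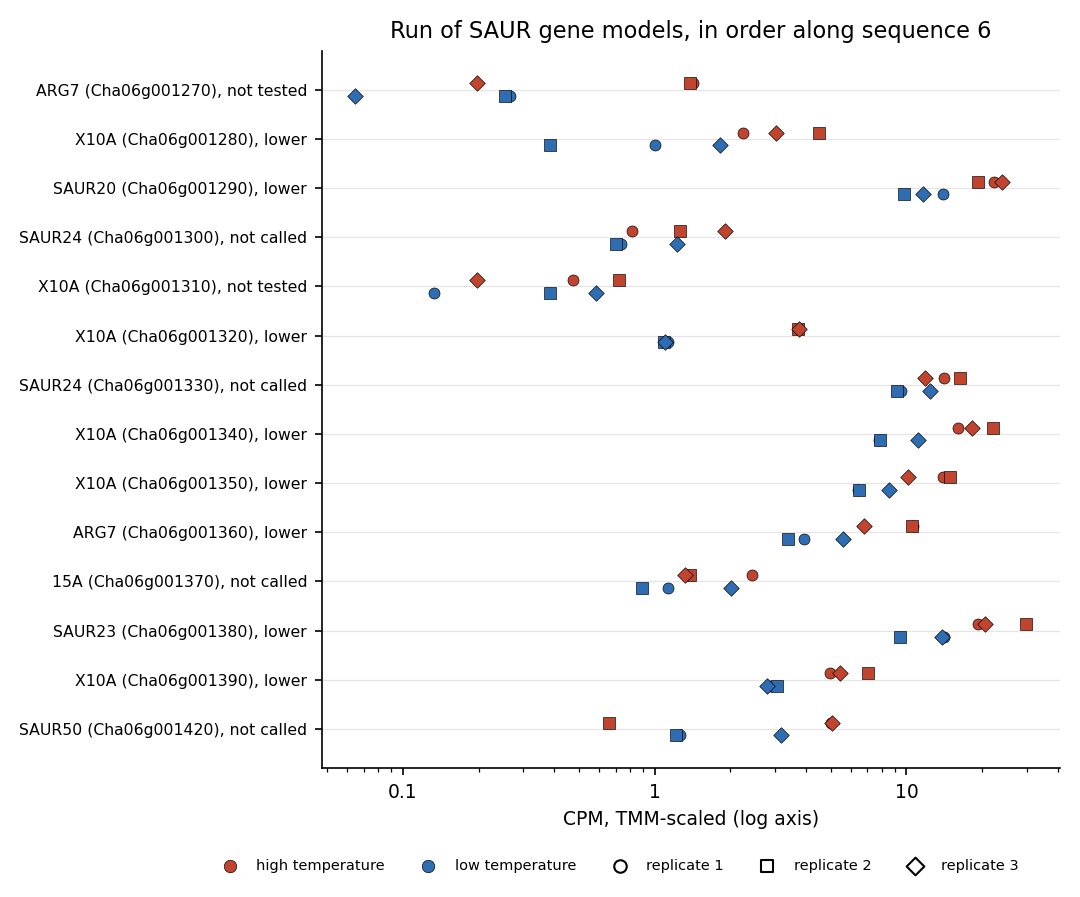
The horizontal axis is the level in CPM on a log scale, and each row is 1 of the 14 SAUR models of the run on sequence 6, from top to bottom in their order along the sequence, with 1 symbol per library. In the 8 models called lower every cold library lies to the left of every warm one, and in the other 6 the groups overlap.

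GH3 enzymes attach amino acids to hormones, and those of the auxin group take free auxin out of action. Of 22 GH3-domain models 16 were tested, 2 rose (12.5%, against 9.27%) and none fell by edgeR or DESeq2 (1 at an unadjusted p under 0.05), with a median of 0.19. The leading model was no auxin enzyme by name: JAR1 (Cha08g011050), which joins jasmonate to isoleucine to make its active form, measured 28.4, 35.5 and 33.1 CPM at high and 40.3, 49.0 and 47.4 CPM at low temperature (1.41-fold, adjusted p = 0.0214). Its call was lost without high-temperature replicate 1 or 3 and without low-temperature replicate 2 or 3. A model named GH3.1 (ChaUn12349.3) rose from 12.2, 9.36 and 11.8 CPM to 16.1, 16.3 and 17.6 CPM (log2 change 0.58 ± 0.18, adjusted p = 0.0272). Only high-temperature replicate 1 could be left out with this call intact. A weak namesake (ChaUn5814.1), with 30, 29 and 22 counts at high and 52, 47 and 51 at low temperature, did not pass (adjusted p = 0.0815). The most abundant GH3 model (Cha02g015420, 67.9 FPKM, also named GH3.1) measured 178, 241 and 194 CPM against 184, 173 and 179 CPM, which overlapped (adjusted p = 0.378).

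PIN proteins export auxin across the plasma membrane, and the related PIN-LIKES (PILS) proteins hold it in the endoplasmic reticulum. Of 20 models with this domain 16 were tested, and 2 rose (12.5%, against 9.27% of all models) and 2 fell (12.5%, against 9.65%). Among 7 tested PIN models 1 was called higher and 0 lower (by DESeq2 also 1 and 0, and at an unadjusted p under 0.05 2 and 0), 6 had a positive change, and the median was 0.28. PIN3 (Cha06g015130), the most abundant PIN at 45.7 FPKM, measured 80.1, 80.1 and 81.0 CPM at high and 79.0, 94.9 and 97.0 CPM at low temperature. The groups overlapped, and the log2 change was 0.17 (adjusted p = 0.401).

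Among 9 tested PILS models 1 was called higher (11.1%) and 2 lower (22.2%), against the same shares of all models. PILS1 (Cha03g014370) fell from 22.0, 21.1 and 22.2 CPM to 12.1, 16.6 and 14.5 CPM (1.51-fold, adjusted p = 0.0174), a call lost without high-temperature replicate 3 and without low-temperature replicate 1 or 3. A weak PILS7 model (Cha03g014560) had 67, 43 and 46 counts at high and 33, 15 and 10 at low temperature (2.66-fold lower, adjusted p = 0.0348), and was called only with high-temperature replicates 1 and 3 and low-temperature replicates 2 and 3 all present. A PILS2 model (Cha06g015290) rose 1.37-fold (adjusted p = 0.0491), but was not called by DESeq2 or on leaving out any single library except high-temperature replicate 2. The most abundant member of the class, another PILS1 model (Cha01g015740, 59.8 FPKM), measured 84.7, 86.9 and 73.4 CPM against 53.8, 76.1 and 75.6 CPM and overlapped (adjusted p = 0.25).

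AUX/LAX proteins import auxin. Of 11 models 10 were tested, 4 rose (40%, against 9.27%) and none fell by edgeR or DESeq2 (1 at an unadjusted p under 0.05), with a median of 0.30. The summed level was 316, 313 and 291 CPM at high and 353, 439 and 424 CPM at low temperature, without overlap. LAX3-type Cha09g008360 (sequence 9, 90200364 to 90204369, minus strand) measured 45.1, 55.6 and 43.8 CPM at high and 70.0, 77.3 and 72.3 CPM at low temperature (1.52-fold, log2 change 0.60 ± 0.13, adjusted p = 0.0045). LAX2-type ChaUn7152.1 rose from 76.0, 71.6 and 75.5 CPM to 90.1, 129.8 and 108.0 CPM (1.47-fold, adjusted p = 0.0106, lost without low-temperature replicate 2). The most abundant model, LAX2-type Cha04g021510 at 56.2 FPKM, rose from 67.8, 60.7 and 53.9 CPM to 72.2, 84.6 and 95.1 CPM (1.38-fold, adjusted p = 0.0257). A short LAX3-type locus of 467 bases outside the gene models rose from 18, 48 and 44 to 65, 88 and 84 counts (2.19-fold, adjusted p = 0.0254). Neither of these last 2 was called without low-temperature replicate 2 or 3, nor the former without high-temperature replicate 3 or the latter without replicate 1. Of the class, 1 model was called higher without low-temperature replicate 2 and 2 without low-temperature replicate 3.

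**Figure D4:**
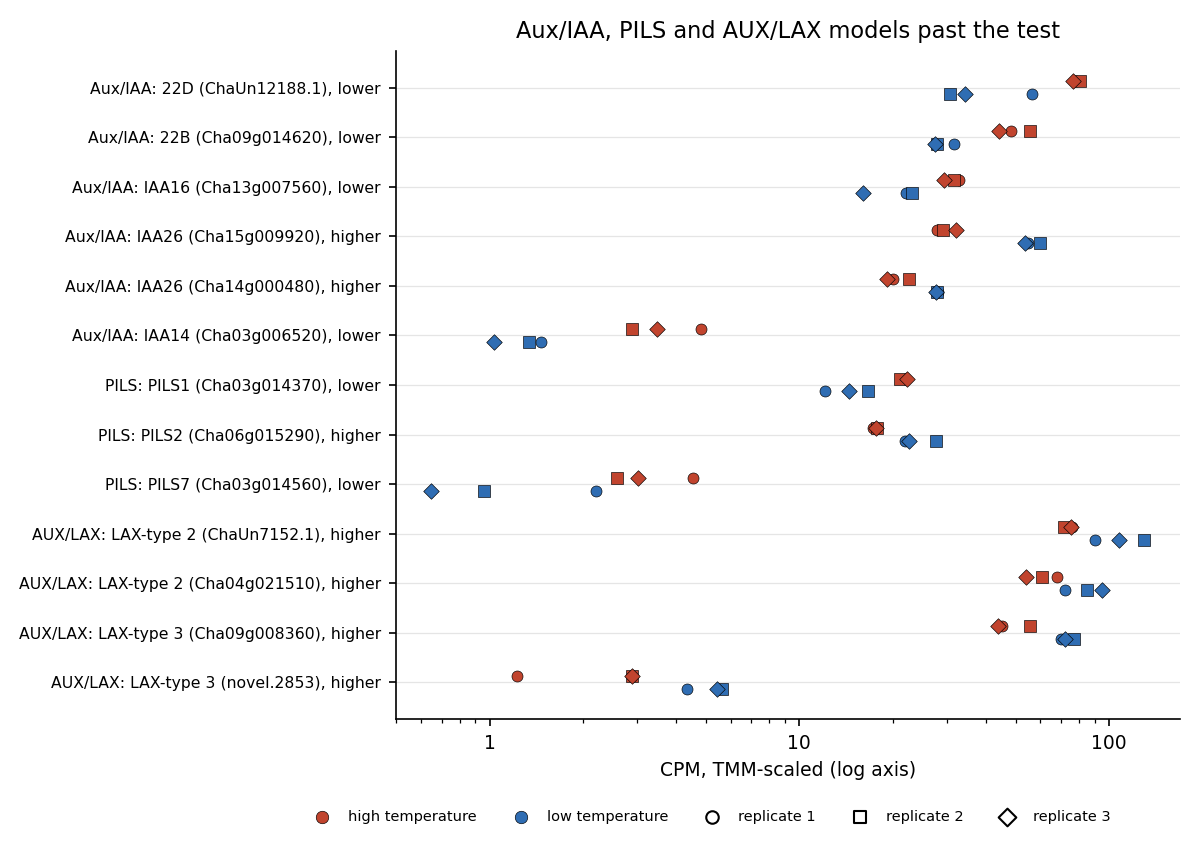
The horizontal axis is the level in CPM on a log scale, and each row is 1 Aux/IAA, PILS or AUX/LAX model past the test, with 1 symbol per library. All 4 AUX/LAX models have their cold libraries to the right, while 4 of the 6 Aux/IAA models have them to the left.

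Of 6 tested ABCB carriers, which move auxin with less direction than PIN proteins, 1 rose and 1 fell, against 9.27% and 9.65% of all models. ABCB1-named Cha10g001690 fell from 27.3, 37.5 and 25.4 CPM to 16.8, 14.3 and 14.8 CPM (1.97-fold, adjusted p = 0.00083). ABCB21-named Cha09g015690, picked out after its values were seen, rose from 49.0, 29.7 and 42.8 CPM to 70.9, 72.6 and 73.6 CPM (adjusted p = 0.00145). Of 10 tested kinases of the PINOID and D6PK type, which switch PIN proteins on by phosphorylation, 1 rose (10%, near the 9.27% of all models) and none fell by edgeR, DESeq2 or an unadjusted p under 0.05. It was D6PKL2 (Cha08g017820), with 61.9, 64.0 and 65.8 CPM at high and 86.3, 95.8 and 99.8 CPM at low temperature (1.47-fold, adjusted p = 0.00488). A short model of 384 bases named after BIG (ChaUn9554.2), a very large protein needed for auxin transport, rose from 41, 25 and 35 counts to 79, 111 and 100 (2.87-fold, adjusted p = 0.00218). Among 8 tested models of other auxin-named proteins it was 1 of 2 that rose (25%, against 9.27% of all models). The other was a locus named auxin-repressed protein (log2 change 0.54, adjusted p = 0.00685, lost without low-temperature replicate 2).

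In auxin synthesis 3 of 9 tested models fell (33.3%, against 9.65% of all models) and none rose, by edgeR or DESeq2 or at an unadjusted p under 0.05. All 3 were named as tryptophan aminotransferase-related proteins, of a family that includes enzymes making indole-3-pyruvate, the precursor of auxin. They were placed in this list by name alone, and their activity was not tested. The model named type 2 (Cha03g009500, sequence 3, 111664182 to 111689426, minus strand) measured 10.3, 7.68 and 7.36 CPM at high and 1.33, 2.30 and 1.88 CPM at low temperature. At 4.58-fold (log2 change -2.19 ± 0.29, adjusted p = 6.74e-05) it changed more than any auxin class member that was called. Those named type 4 (Cha04g007010, 1.51-fold lower) and type 3 (Cha04g007020) lie side by side on sequence 4 and fell with adjusted p of 0.00819 and 0.0438. Only low-temperature replicate 2 could be left out with the type 3 call intact, and the type 4 call was lost without that replicate. None of 5 tested YUCCA models, the enzymes of the next step, was called by edgeR or DESeq2, and none had an unadjusted p under 0.05. Of 9 conjugate hydrolases, which set auxin free again, none fell by either tool or at an unadjusted p under 0.05. Of the 9, 1 rose by each of these (11.1%, near the 9.27% of all models by edgeR). It was named ILR1-like 1 (Cha15g010110), with 34.5, 39.4 and 33.7 CPM at high and 46.8, 56.8 and 44.7 CPM at low temperature (1.38-fold, adjusted p = 0.0278, lost without high-temperature replicate 1 or 3 and low-temperature replicate 2 or 3). Of 4 tested DAO oxidases, which inactivate auxin, 1 rose and 1 fell (25% each, against 9.27% and 9.65% of all models). Each call was lost in at least 5 of the 6 fits with 1 library left out. The riser (ChaUn8916.2) had 10, 56 and 24 counts at high and 80, 69 and 69 at low temperature (log2 change 1.32, adjusted p = 0.0354). The other (Cha05g011580) had a log2 change of -0.77 (adjusted p = 0.046) and was not called by DESeq2.

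LOB-domain (LBD) factors include direct ARF targets in Arabidopsis roots. Of 17 tested, 2 rose (11.8%, against 9.27% of all models) and 3 fell (17.6%, against 9.65%). The smallest p was a rise of LBD37 (Cha13g011490) from 6.53, 2.52 and 3.75 CPM to 16.5, 9.08 and 10.1 CPM (2.79-fold, adjusted p = 0.00474). LBD37 is known in Arabidopsis as a repressor in nitrogen and anthocyanin metabolism rather than as an auxin target. The other riser was LBD38 (ChaUn10114.2), and the fallers were LBD21 (Cha08g004530), LBD41 (Cha06g019700) and LBD25 (Cha03g020920). All 3 falls lost their call without low-temperature replicate 2, and that of LBD25 in 5 of the 6 fits with 1 library left out.

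Markers of cell types, matched by protein name, were measured beside these genes. Those of leaf mesophyll were only chlorophyll a-b binding proteins and ribulose bisphosphate carboxylase small chains. In yellowed shoots, a fall of these photosynthesis genes cannot be told apart from fewer mesophyll cells. The vascular list included all models named laccase. The dividing-cell list held A-type and B-type cyclins, some kinesins and DNA replication licensing factors. It also held all models with certain histone names, of any variant, so its sums may not reflect division alone. Of the leaf mesophyll markers 14 of 23 tested models were called lower (60.9%, against 9.65% of all models) and 1 higher (4.35%, against 9.27%). Their summed levels were 49153, 36132 and 49251 CPM in high-temperature replicates 1, 2 and 3. At low temperature they were 30213 to 31190 CPM. Markers of the meristem and organ initials, where ARF5 is active in Arabidopsis, had 4 of 24 lower (16.7%) and 1 higher (4.17%). Their sums were 288 to 296 CPM at high against 252 to 269 CPM at low temperature. In dividing-cell markers 6 of 68 were lower (8.82%, near the background) and 2 higher (2.94%). Their sums were 34976, 24099 and 33800 CPM in high-temperature replicates 1, 2 and 3. At low temperature they were 28988 to 36012 CPM. Epidermis markers had 1 of 22 lower (4.55%) and 3 higher (13.6%), with sums of 2210 to 2521 against 2435 to 2849 CPM. Vascular markers had 1 of 46 lower (2.17%) and 5 higher (10.9%, near the 9.27% of all models). The vascular sums were 982 to 1010 against 898 to 979 CPM. Of these lists 2 of 37 meristem, 3 of 85 dividing-cell and 5 of 73 vascular models were at 0 in every library. Their part in the auxin results was not tested.

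The shares of all gene models that other fits called give the background for the counts named above. DESeq2 called 9.52% higher and 9.06% lower, limma on filtered FPKM 6.73% and 6.77%, and limma on unfiltered FPKM 3.81% and 4.08%. With the replicate block the shares were 9.11% and 8.84%, at an adjusted p under 0.01 they were 4.4% and 4.65%, and against a 2-fold change they were 0.153% and 0.437%. Without high-temperature replicates 1, 2 and 3 in turn, 8.02%, 9.98% and 6.8% of models were lower. Without low-temperature replicates 1, 2 and 3 in turn, 7.92%, 4.85% and 4.84% were lower.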

How the data were processed

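The authors deposited raw counts per gene model and FPKM for the same models, 6 libraries in each. The submitters' processing notes name R 4.1.0, featureCounts 1.5.0-p3, DESeq2 1.20.0, HISAT2 2.0.5, CASAVA 1.8.2 and fastp without roles. Genome build, strand setting and handling of multiply matching reads: not given in the sources used here. Reads from an antisense partner cannot be told apart. In the deposited FPKM each library has a divisor of its own, 1.13 times its total count in high-temperature replicate 2 and 0.977 to 1.01 times in the others. Sequence numbers and coordinates are those of the deposited table. Gene sequences were not used here.

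The test was edgeR 4.0.16 (R 4.3.3) with robust quasi-likelihood fits on TMM-scaled counts, a design of temperature alone, and models kept by filterByExpr at a minimum count of 10. Calls took an adjusted p under 0.05 over all models tested. A log2 change is low minus high temperature, and its SE comes from the change and its F value. CPM were scaled by TMM. A count of 3 is 0.180 to 0.204 CPM, which covers counting error only. Levels are compared between genes as FPKM, per length. The replicate numbers are not said to pair the libraries, and the main fit did not pair them. Correlations of same-numbered libraries' deviations ran from -0.011 to 0.040, and those of differently numbered ones from -0.029 to 0.040. With so few libraries these values cannot show that pairing was absent.

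Members and lists were chosen with earlier results of these data known. Named were, per class, the 3 smallest p, every member called at least 2-fold and the highest FPKM, and the smallest p of each list, 37 models; other models are named to complete a small count or a shared name and were chosen after their values were seen. A model that the rule names is not reported here. Alternatives were other scalings, count filters, DESeq2 1.42.0, a replicate block, each library left out, limma 3.58.1 on log2 FPKM with a pseudocount of 1 or 0.1 (filter at a mean FPKM of 0.5) and stricter thresholds.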

Additional observations from a re-analysis of the deposited data

How the results depend on the processing

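With all libraries, 24 members were called higher, 17 lower and 5062 models in all. Leaving out 1 library gave 9 to 26 members higher, 10 to 16 lower and 2606 to 5621 models in all, with 5 to 15 ARF models higher, 1 to 4 AUX/LAX models higher and 5 to 10 SAUR models lower. The fewest came without low-temperature replicate 2 or 3, and members higher also fell to 13 without high-temperature replicate 3. With an adjusted p under 0.01 there were 9 members higher, 9 lower and 2423 models in all, 6 ARF and 1 AUX/LAX model higher and 6 SAUR models lower. Tested against a 2-fold change with edgeR, 0 members were called in either direction (1 higher and 3 lower at an unadjusted p under 0.05) and 158 models in all, so 0 ARF, 0 AUX/LAX and 0 SAUR models. With unfiltered log2(FPKM + 1) and limma 10 members were higher, 7 ARF and 1 AUX/LAX among them, and 2867 models were called in all. Without the SAUR run on sequence 6, chosen after seeing the data, 9 members and 2 SAUR models were lower. With the replicate block 21 members were higher and 17 lower, and 13 ARF models were higher. Other scalings, count filters, DESeq2 and filtered FPKM kept each of these counts within 1.5 times.

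The IAA14 model Cha09g014630, with a log2 change near 0, turned from -0.0043 to 0.0016 with relative log expression scaling, 0.0005 without a count filter, 0.0040 with DESeq2 and 0.0094 with each FPKM fit, and ran from -0.1344 to 0.1077 with 1 library left out. The summed GH3 level, log2 low over high, was -0.012 and ran from -0.0832 to 0.0746 with 1 library left out, positive without high-temperature replicate 2. Of the other 546 values of named genes 67 lost their call with the same direction. The remaining 479 kept their direction and their status as called or not called. These include values of named models that were not called with all libraries, and so had no call to lose. The causes were not tested.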
